A study of Mus musculus with 12 samples.

Results

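The interaction of genotype and apoptotic cells was examined in mouse bone marrow-derived macrophages: for each gene, how far the difference between Kif13b-deficient and wild type cells changed once the macrophages had apoptotic cells to engulf. All 12 of the 12 libraries of the study entered the comparison, in 4 groups of 3, with the 54582 gene symbols that stand in both count tables. Of these symbols, 16810 had enough counts to be tested. The groups were wild type macrophages (WT), macrophages of the altered Kif13b genotype, wild type macrophages co-cultured with apoptotic Jurkat cells (WT + AC), and macrophages of the altered genotype in the same co-culture. The altered genotype is written Kif13b-/- in the design and as a Kif13b knock down in the sample descriptions, with no word on the allele or on the exons affected. Its libraries are called KO-labelled here, because Kif13b itself went against the label in 1 condition. Jurkat is a human T cell leukaemia line, and the co-culture lasted 90 min with 1 macrophage for 5 apoptotic cells. The labels place the source of the marrow in the tibia and give 6 to 8 weeks without saying of what. For the libraries without apoptotic cells they give 10, 10 and 11% serum (WT) and 12, 13 and 14% serum (KO-labelled), values that run with the genotype and are in doubt.

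KIF13B is a kinesin, a motor that walks along microtubules and carries membrane cargo toward their plus ends, and the study places it in efferocytosis, the engulfment of dying cells. In efferocytosis a macrophage recognises phosphatidylserine on the dying cell either directly or through bridging proteins such as MFG-E8 and GAS6, which are bound by integrins and by receptor kinases such as MERTK. The cell is then drawn in through the ELMO, DOCK and CRK module acting on the actin skeleton, and digested in the lysosome. In atherosclerotic plaques, clearance of dying cells by macrophages limits the necrotic core.

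The interaction was the log2 difference KO-labelled + AC minus WT + AC, minus the log2 difference KO-labelled minus WT. A positive value thus means that the KO-labelled libraries stood higher, relative to WT, with apoptotic cells than without. It was taken from 1 edgeR fit of the 12 libraries, and a gene was called at a Benjamini-Hochberg adjusted p under 0.05. In the counts below, a positive or negative interaction is one that was called. Values are given as CPM, counts scaled to a common library size, for libraries 1, 2 and 3 of a group, or as mean ± SD over the 3, and log2 differences as the estimate ± its standard error (SE). CPM are not divided by gene length, so they compare libraries and not genes.

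Total counts were 18256622 to 18770757 per library without and 17000976 to 17285594 with apoptotic cells. The number of symbols with any count was 18335 to 18540 per library without and 31787 to 32801 with apoptotic cells. The cause of this difference was not tested, and it bears on every change given between the conditions. The common biological coefficient of variation was 0.117 among the libraries without and 0.0293 among those with apoptotic cells (0.0839 in the joint fit, which gives both conditions 1 spread). The adjusted p of a genotype difference within 1 condition also comes from the joint fit. With apoptotic cells such a difference is thus called less readily than by their own spread, and without them more readily. The labels do not state if a group's 3 libraries stem from different mice or dishes, and p-values here therefore reflect library-to-library spread, which may be technical. Among the libraries without apoptotic cells, KO-labelled libraries 1 and 2 stood apart by gene length: the correlation across genes of a library's log2 deviation with log length was -0.357 and -0.191 there, and 0.111 to 0.215 in the other 4. Condition and count table were the same split of the libraries and cannot be told apart; the interaction subtracts differences taken inside each table. Human reads that align to the mouse genome could add to the counts with apoptotic cells, and their share was not measured. None of the 12 macrophage markers, among them Csf1r and Adgre1, was at 0 in any group. Their summed level was 34497 to 36732 CPM in WT and 34537 to 43486 CPM in KO-labelled libraries. With apoptotic cells it was 13870 to 14668 CPM in WT + AC and 16621 to 16960 CPM in KO-labelled + AC libraries. Of the 12, 3 had a positive and 0 a negative interaction, beside 7.55% and 5.13% of all genes tested. In bulk RNA, fewer cells of a type and less RNA per cell cannot be told apart.

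Kif13b (chr14:64647265-64809617 in GRCm38, plus strand, protein-coding) stood lower in the KO-labelled than in the WT libraries without apoptotic cells and higher with them. Its level was 35.9, 33.4 and 33.2 CPM in WT, 19.1, 23.1 and 25.9 CPM in KO-labelled, 81.3, 77.6 and 81.5 CPM in WT + AC and 89.1, 88.4 and 89.5 CPM in KO-labelled + AC libraries. The groups did not overlap in either condition, and the order of the genotypes was opposite. Over all genes tested, KO-labelled and WT libraries did not overlap in 26.7% without and in 27.2% with apoptotic cells. These shares stand beside each later statement of groups that do not overlap. The genotype difference was -0.59 without (edgeR adjusted p = 0.000227) and 0.15 with apoptotic cells, which was not called (edgeR adjusted p = 0.671), and the interaction was 0.74 ± 0.13 (edgeR adjusted p = 0.000815). The KO-labelled + AC libraries therefore do not show the loss of Kif13b transcript that their label names, and every direction drawn from them below rests on that label. Whether the counted reads lie inside the altered part of the gene is not given. Kif13b was also 1.23 (WT) and 1.97 (KO-labelled) higher on the log2 scale with apoptotic cells.

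Mertk (chr2:128698956-128802894, plus strand), the receptor kinase named in the title of the study, was not called. It was at 62.1, 72.5 and 81.4 CPM in WT, 58.0, 80.2 and 81.0 CPM in KO-labelled, 45.3, 41.2 and 43.6 CPM in WT + AC and 43.2, 45.5 and 44.7 CPM in KO-labelled + AC libraries. Both pairs of groups overlapped. The interaction was 0.012 ± 0.16 (edgeR adjusted p = 1), and none of the 22 alternative analyses called it.

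Mfge8 (chr7:79133768-79149060, minus strand), which encodes the bridging protein MFG-E8 between phosphatidylserine and integrins, was called. It was at 2298, 1914 and 2057 CPM in WT, 4902, 5000.2 and 4496 CPM in KO-labelled, 969, 899 and 946 CPM in WT + AC and 648, 615 and 613 CPM in KO-labelled + AC libraries. The KO-labelled libraries were all above WT without and all below WT with apoptotic cells. The difference was 1.20 (edgeR adjusted p = 5.25e-10) in the first case and -0.58 (edgeR adjusted p = 0.000439) in the second, which gave an interaction of -1.78 ± 0.12 (edgeR adjusted p = 2.10e-10). Both genotypes had less Mfge8 with apoptotic cells, with log2 differences of -1.16 in WT and -2.94 in the KO-labelled cells.

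**Figure D1:**
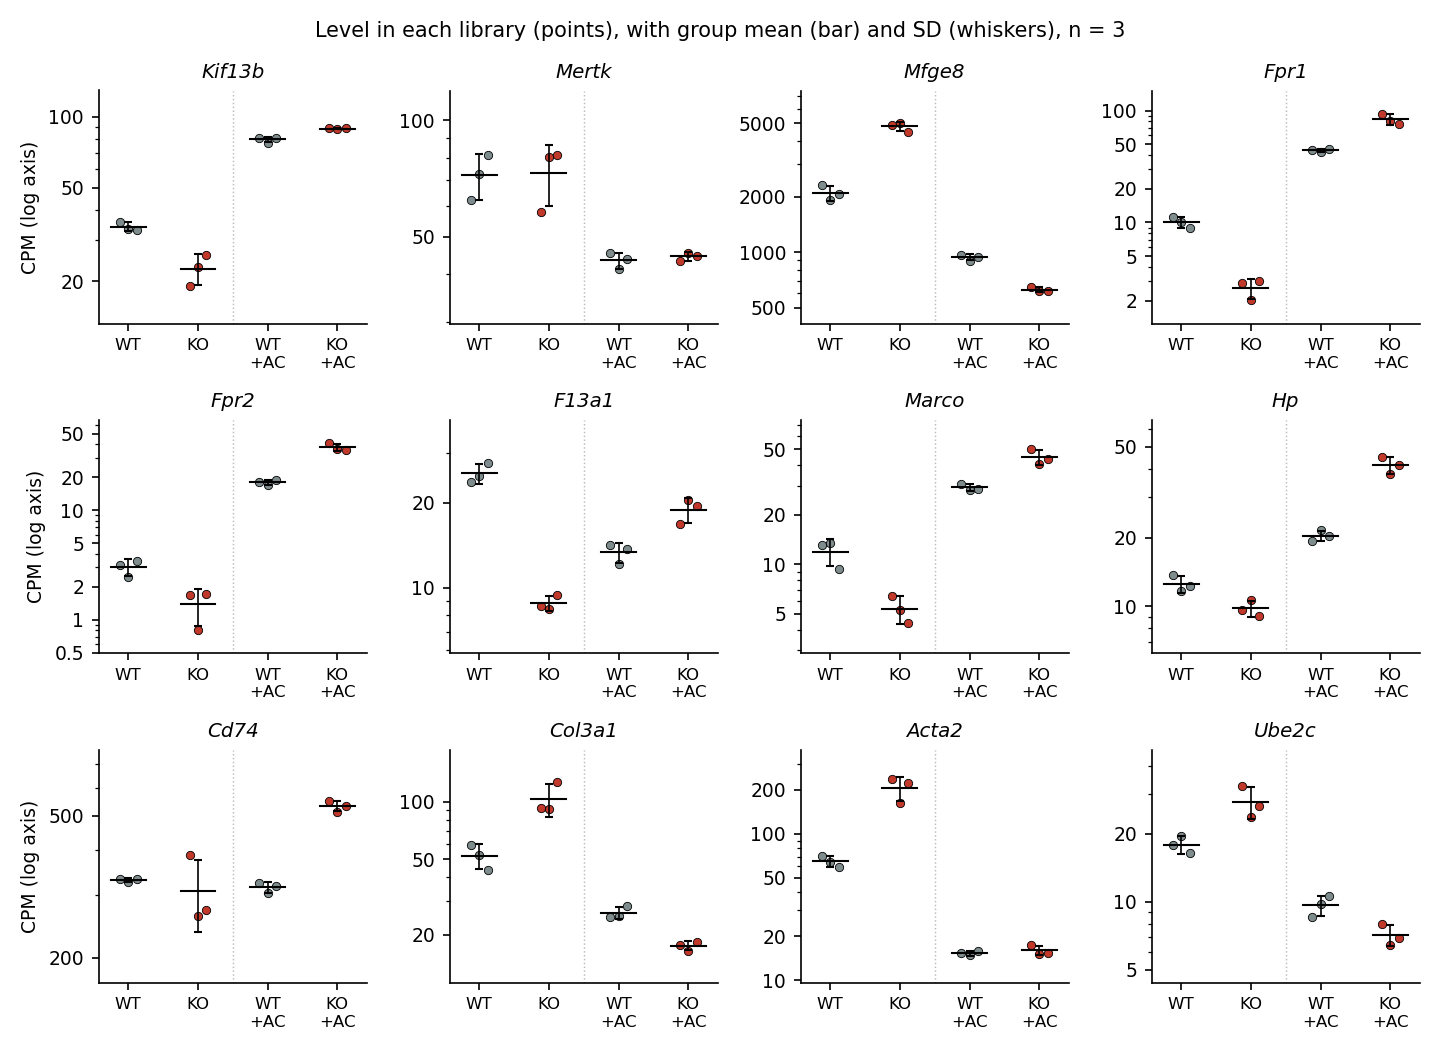
CPM (log axis) of 12 genes in each of the 12 libraries (points), with the mean (bar) and SD (whiskers) of each group of 3; KO stands for the libraries so labelled, AC for apoptotic cells, and the dotted line separates the 2 conditions. Mertk does not separate the genotypes. Kif13b, Mfge8, Fpr1, Fpr2, F13a1, Marco, Hp, Col3a1 and Ube2c order them in opposite ways without and with apoptotic cells.

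Over all genes, 2132 of 16810 were called for the interaction (12.7%), 1269 with a positive (7.55%) and 863 with a negative value (5.13%). The median interaction of the positive genes was 0.60, with 95 of at least 2-fold, and that of the negative genes was -0.75, with 235 of at least 2-fold. The genotype differences had opposite signs in the 2 conditions for 1165 of the positive and 778 of the negative genes, and for 8525 of all 16810. Called genes were selected for a difference between these values, which by itself favours opposite signs, so nothing is read from the higher share. Only 20 positive genes were called lower without and also higher with apoptotic cells, and 33 negative genes the reverse, when the 12 libraries shared 1 estimate of spread. With each table fitted apart, which lets the tight libraries with apoptotic cells keep their own spread, these counts were 190 and 118. Most called genes had a genotype difference called without apoptotic cells only, 1132 positive and 669 negative in the joint fit. It was called with them only for 24 and 38. In the separate fits, which tested 2080 of the called genes, these counts were 603 and 401, and 238 and 191. The difference without apoptotic cells was the larger for 1196 positive and 677 negative genes. In the joint fit the genotype difference itself was called for 3999 genes without (23.8%) and 157 with apoptotic cells (0.934%), and in the separate fits for 2040 and 1838.

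The number of calls changed with the library left out. A smaller group can by itself give fewer calls, so a fall does not single out the library left out. The number rose only without KO-labelled library 3 or WT library 1 (2614 without the latter). Leaving out 1 library moved it by over 1.5 times in 6 of 12 cases: to 4330 without KO-labelled library 3, 1409 without KO-labelled library 2, 1129 without WT library 3, 1266 without WT + AC library 2, and 1356 and 1245 without KO-labelled + AC libraries 1 and 2. Without KO-labelled libraries 1 and 2 together it was 1043, of which 838 were among the 2132. Across 12125 genes tested in both separate fits, the genotype differences without and with apoptotic cells, which share no library, had a Pearson correlation of -0.146 and a Spearman correlation of -0.162. The correlation describes genes, which are not independent replicates, and shares depth and gene length between its axes.

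**Figure D2:**
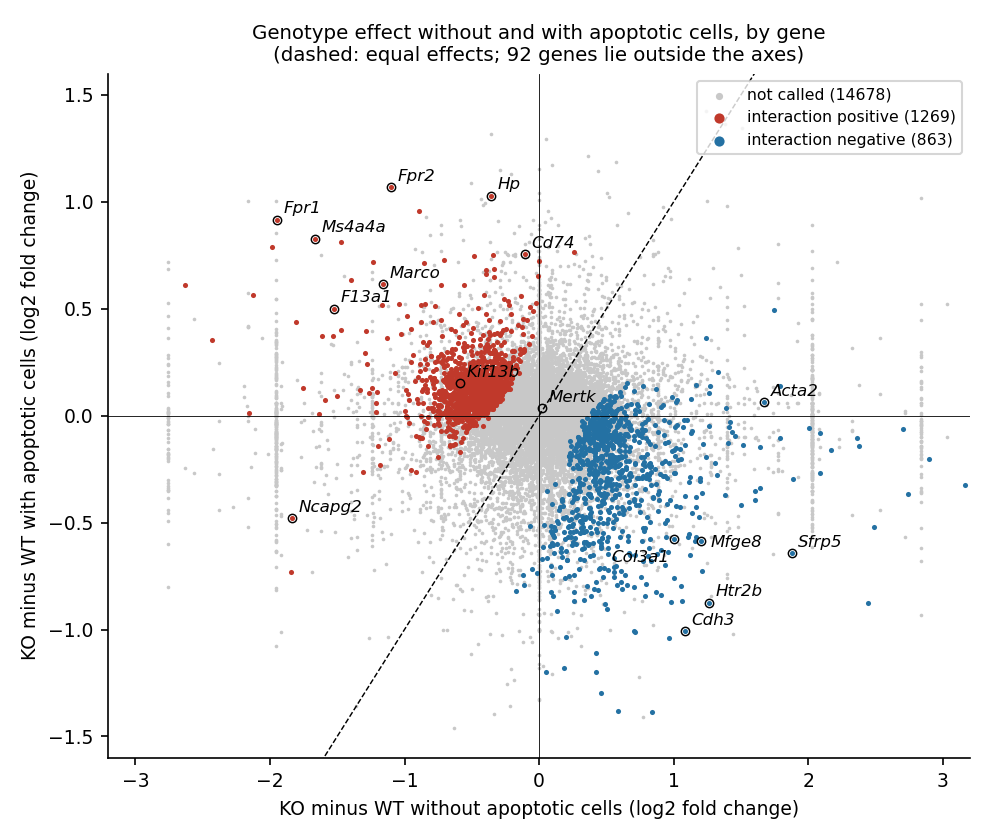
Log2 difference KO-labelled minus WT without (horizontal) and with (vertical) apoptotic cells for 16810 genes, with the 1269 positive and 863 negative interactions coloured, named genes circled and equal differences on the dashed line; 92 genes lie outside the axes. Most called genes lie in the upper left or lower right corner, where the genotype differences have opposite signs.

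Among receptors and bridging proteins of efferocytosis, 7 of 31 tested genes had a positive and 2 a negative interaction. This and each later list's count stands beside shares of 7.55% positive and 5.13% negative over all genes tested. All genes tested include many with few counts in 1 condition. The separate fits tested 12125 genes in both conditions, with 2080 of the 2132 called genes among them. Shares over those genes are therefore higher than 7.55% and 5.13%. The lists and their members were chosen with earlier results of these data known. A share above these is therefore a description and not support for a list. The scavenger receptor gene Marco was at 13.0, 13.4 and 9.42 CPM in WT, 6.45, 5.29 and 4.39 CPM in KO-labelled, 30.7, 28.3 and 28.6 CPM in WT + AC and 49.8, 40.7 and 43.8 CPM in KO-labelled + AC libraries. Each KO-labelled library was below every WT library without and above every WT library with apoptotic cells, and the interaction was 1.77 ± 0.19 (edgeR adjusted p = 5.81e-07). Cd14, the lipopolysaccharide co-receptor that also tethers dying cells, was at 157 ± 3.65 CPM in WT, 127 ± 4.13 CPM in KO-labelled, 709 ± 15.0 CPM in WT + AC and 901 ± 35.1 CPM in KO-labelled + AC libraries (mean ± SD). Its interaction was 0.66 ± 0.11 (edgeR adjusted p = 0.000425), with differences of -0.31 and 0.35 in the 2 conditions. Itgav, the alpha v chain of the integrins that bind MFG-E8, had an interaction of 0.76 ± 0.15 (edgeR adjusted p = 0.00182) and its beta 3 partner Itgb3 one of -0.55 ± 0.14 (edgeR adjusted p = 0.0124). The alpha v and beta 3 genes thus moved in opposite directions, with Itgav -0.54 and Itgb3 0.31 without apoptotic cells. The remaining positive genes were Thbs1, Cd36, Stab1 and Msr1, with interactions of 0.58, 0.45, 0.63 and 0.43, named after their values were seen. The list's median was 0.026, beside -0.034 for all genes, and 22 members were not called, among them the MERTK relatives Axl (0.036) and Tyro3 (-0.64) and the ligand gene Gas6 (0.017), chosen for their role and outside the naming rule.

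In the engulfment machinery, 4 of 31 tested genes had a positive and none a negative interaction, beside 7.55% and 5.13% of all genes. Cybb, the membrane subunit of the phagocyte oxidase, was at 806 ± 71.3 CPM in WT, 598 ± 71.6 CPM in KO-labelled, 2079.6 ± 65.3 CPM in WT + AC and 2521 ± 69.3 CPM in KO-labelled + AC libraries (mean ± SD). The KO-labelled libraries lay below WT without and above WT with apoptotic cells, and the interaction was 0.71 ± 0.13 (edgeR adjusted p = 0.000842). Elmo1, a subunit of the exchange factor that activates RAC at the phagocytic cup, had -0.42 and 0.11 in the 2 conditions and an interaction of 0.54 ± 0.13 (edgeR adjusted p = 0.00775). The adaptor gene Crk (0.45 ± 0.12, edgeR adjusted p = 0.0151) and the early endosome gene Rab5a (0.43 ± 0.13, edgeR adjusted p = 0.0313) were less stable. The call of Crk was lost without KO-labelled library 2 or KO-labelled + AC library 1 or 2, and that of Rab5a without any 1 library other than WT 1 and KO-labelled 1 and KO-labelled 3. The count of called members was 10 without KO-labelled library 3, and 2 without KO-labelled library 2 or KO-labelled + AC library 1 or 2.

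Of KIF13B, its relative KIF13A and their cargo partners, 3 of 12 genes were called. Apart from Kif13b itself, Utrn, which encodes the KIF13B partner utrophin, had an interaction of 0.50 ± 0.16 (edgeR adjusted p = 0.0369) but lost the call without any 1 library other than KO-labelled 3 and KO-labelled + AC 3 (highest adjusted p of any alternative 0.511). Dlg3, a scaffold of the discs large family, had -0.59 ± 0.13 (edgeR adjusted p = 0.00451), with 39.9 ± 0.892 CPM in WT and 44.3 ± 3.96 CPM in KO-labelled and 17.7 ± 0.438 CPM in WT + AC and 13.0 ± 0.324 CPM in KO-labelled + AC libraries. Among 20 other transport kinesin genes, 4 had a positive interaction: the conventional kinesin heavy chain Kif5b (0.72 ± 0.15, edgeR adjusted p = 0.00311), the kinesin-2 subunit Kif3a (0.57 ± 0.14), Kif1b (0.53 ± 0.13) and the depolymerase Kif2a (0.45 ± 0.14, a call lost without any 1 library other than KO-labelled 3). Kif5b was at 78.0, 81.2 and 90.8 CPM in WT, 44.5, 46.5 and 67.0 CPM in KO-labelled, 117, 112 and 122 CPM in WT + AC and 120.1, 123 and 123 CPM in KO-labelled + AC libraries. Its KO-labelled library 3 lay closest to WT, and with apoptotic cells the genotypes overlapped. After correction for gene length and GC content, Kif2a was at 0.089 and lost its call (edgeR adjusted p = 0.751). Kif5b (0.40), Kif3a (0.56) and Kif1b (0.37) kept theirs under that correction. Without KO-labelled libraries 1 and 2, 1 of the 4 kinesin calls remained, that of Kif5b (edgeR adjusted p = 0.0447).

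Receptors for formyl peptides, which guide phagocytes toward bacteria and damaged mitochondria, were among the 12 genes with the largest positive interactions under the naming rule. Fpr1 (chr17:17876471-17883940, minus strand) was at 11.3, 10.2 and 8.99 CPM in WT, 2.85, 2.01 and 2.99 CPM in KO-labelled, 44.5, 42.7 and 45.5 CPM in WT + AC and 93.6, 81.1 and 76.0 CPM in KO-labelled + AC libraries. The KO-labelled libraries held less than WT without and more with apoptotic cells (-1.95 and 0.92), with no overlap in either condition. The interaction was 2.86 ± 0.19 (edgeR adjusted p = 9.77e-11). Its neighbour Fpr2 (chr17:17887824-17893952, plus strand) was at 3.18, 2.45 and 3.47 CPM in WT, 1.70, 0.803 and 1.71 CPM in KO-labelled, 18.03, 17.0 and 18.8 CPM in WT + AC and 41.0, 36.5 and 35.7 CPM in KO-labelled + AC libraries. The interaction was 2.17 ± 0.25 (edgeR adjusted p = 2.47e-06), with -1.10 without and 1.07 with apoptotic cells. Both genotypes rose with apoptotic cells, Fpr1 by 2.12 in WT and 4.99 in KO-labelled cells on the log2 scale.

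The Ms4a genes, which encode membrane proteins with several passes through the membrane, were listed with these receptors, and 4 of the 11 tested genes of the joint list had a positive and none a negative interaction. This joint list was drawn up with earlier results of these data known, so its share is a description only. Ms4a4a was at 9.77, 18.7 and 20.6 CPM in WT, 5.16, 6.09 and 4.27 CPM in KO-labelled, 19.3, 17.8 and 19.2 CPM in WT + AC and 36.6, 33.7 and 29.6 CPM in KO-labelled + AC libraries. WT library 1 was the lowest of its group, yet all KO-labelled libraries lay below it. The interaction was 2.49 ± 0.29 (edgeR adjusted p = 5.62e-05). Ms4a6c followed with 0.58 ± 0.15 (edgeR adjusted p = 0.0134), a call lost without WT library 2 (edgeR adjusted p = 0.0657).

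Of 14 tested monocyte markers, 4 had a positive and none a negative interaction, and the list's median was 0.42. F13a1, the A subunit of coagulation factor XIII, crossed over. It was at 23.6, 24.9 and 27.7 CPM in WT, 8.62, 8.43 and 9.39 CPM in KO-labelled, 14.1, 12.1 and 13.8 CPM in WT + AC and 16.8, 20.4 and 19.4 CPM in KO-labelled + AC libraries. The log2 difference with minus without apoptotic cells was -0.93 in WT and 1.10 in KO-labelled cells. The interaction was 2.02 ± 0.16 (edgeR adjusted p = 2.81e-09). Hp, which encodes the haemoglobin scavenger haptoglobin, was at 13.7, 11.6 and 12.3 CPM in WT, 9.64, 10.6 and 9.09 CPM in KO-labelled, 19.4, 21.5 and 20.2 CPM in WT + AC and 45.3, 38.1 and 41.4 CPM in KO-labelled + AC libraries. Most of its interaction of 1.39 ± 0.15 (edgeR adjusted p = 9.34e-07) came from the co-culture, where it was 1.03 higher in the KO-labelled libraries. Adgre4, an adhesion receptor related to F4/80, had low counts and an interaction of 2.77 ± 0.39 (edgeR adjusted p = 4.13e-05), at 1.92 ± 0.568 CPM in WT, 0.484 ± 0.232 CPM in KO-labelled, 2.32 ± 0.209 CPM in WT + AC and 4.02 ± 0.655 CPM in KO-labelled + AC libraries (mean ± SD). Itga4, the alpha 4 integrin of monocyte adhesion, had 0.78 ± 0.16 (edgeR adjusted p = 0.00274). The summed level of the 15 monocyte markers was 111 to 129 CPM in WT, 78.4 to 86.5 CPM in KO-labelled, 218 to 229 CPM in WT + AC and 240.6 to 250.3 CPM in KO-labelled + AC libraries. Ly6c1 was at 0 in WT and in both groups with apoptotic cells, and the part of monocytes in these results was not tested.

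Further genes with large positive interactions were not tied to 1 list. Clec4a1, a C-type lectin of myeloid cells, was at 91.3, 120.4 and 119 CPM in WT, 77.3, 48.9 and 57.0 CPM in KO-labelled, 30.4, 29.5 and 31.7 CPM in WT + AC and 50.8, 49.6 and 49.5 CPM in KO-labelled + AC libraries. The log2 difference with minus without apoptotic cells was -1.85 in WT and -0.29 in KO-labelled cells, and the interaction was 1.57 ± 0.18 (edgeR adjusted p = 2.66e-06). AI504432, a locus with no assigned function, was at 0.935 ± 0.0211 CPM in WT, 0.412 ± 0.0133 CPM in KO-labelled, 49.3 ± 1.88 CPM in WT + AC and 70.7 ± 3.998 CPM in KO-labelled + AC libraries (mean ± SD), with an interaction of 1.69 ± 0.32 (edgeR adjusted p = 0.00128). Spic, a transcription factor of haem-handling macrophages, had 1.56 ± 0.39 (edgeR adjusted p = 0.00904) on group means of 1.08 ± 0.248 CPM in WT and 0.523 ± 0.208 CPM in KO-labelled and 3.43 ± 0.468 CPM in WT + AC and 4.92 ± 0.706 CPM in KO-labelled + AC libraries, and Htra4, a secreted protease, had 1.95 ± 0.56 (edgeR adjusted p = 0.0215). The call of Spic was lost without WT library 3 and that of Htra4 without WT library 1 or 3 or KO-labelled library 1 or 2 (highest adjusted p of any alternative 0.0557 and 0.433). Plet1, a surface protein gene, had 4, 2 and 3 counts in WT and 0 in every KO-labelled library, against 3 counts that a count of 0 allows, so no fold change is given for it without apoptotic cells. With them it was at 23.1 ± 1.27 CPM in WT + AC and 29.9 ± 1.29 CPM in KO-labelled + AC libraries, and the fitted interaction of 5.12 (edgeR adjusted p = 0.00593) depends on the prior count.

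Of 25 tested NF-kB dependent cytokine and regulator genes, 9 had a positive and none a negative interaction, and their median was 0.38. NF-kB is the transcription factor family that drives the early inflammatory response of macrophages. Tnf, the gene of the cytokine TNF, was at 14.1, 14.7 and 14.4 CPM in WT, 11.3, 10.4 and 9.27 CPM in KO-labelled, 1914, 1774 and 1964 CPM in WT + AC and 2052, 2069 and 1897 CPM in KO-labelled + AC libraries. The KO-labelled libraries were all below WT without apoptotic cells and overlapped WT with them, so the interaction of 0.58 ± 0.14 (edgeR adjusted p = 0.00679) sat on a low resting level and a rise of 7.03 and 7.61 in the 2 genotypes on the log2 scale. Nfkbiz, an inducible nuclear cofactor of NF-kB, was at 8.47 ± 0.811 CPM in WT, 6.03 ± 0.242 CPM in KO-labelled, 492 ± 16.6 CPM in WT + AC and 575 ± 14.1 CPM in KO-labelled + AC libraries (mean ± SD). The interaction was 0.72 ± 0.14 (edgeR adjusted p = 0.00196). Traf1, a signalling adaptor of TNF receptors, differed mainly in co-culture (0.52, edgeR adjusted p = 0.00105) and had 0.74 ± 0.14 (edgeR adjusted p = 0.00131). Tnfaip3, the feedback inhibitor A20, had 0.53 ± 0.12 (edgeR adjusted p = 0.00411). The other 5 positive genes, Il1a (0.64), Nfkbid (0.47), Nfkb1 (0.49), Ptgs2 (0.99) and Birc3 (0.42), were named after their values were seen. The count was 5 without KO-labelled library 2.

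Chemokine genes went both ways, with 1 positive and 4 negative of 19 tested. Cxcl2, the neutrophil attractant, was at 2.70, 3.55 and 1.98 CPM in WT, 0.747, 1.41 and 1.10 CPM in KO-labelled, 1479, 1411 and 1504 CPM in WT + AC and 1614, 1659.6 and 1508 CPM in KO-labelled + AC libraries. Its interaction of 1.46 ± 0.26 (edgeR adjusted p = 0.000615) came from the lower resting level of the KO-labelled libraries, and with apoptotic cells the difference was 0.12. Ccl2, the main monocyte attractant, showed the other pattern. It was at 43.4, 52.8 and 38.0 CPM in WT, 55.0, 45.8 and 41.8 CPM in KO-labelled, 153, 146 and 148 CPM in WT + AC and 101, 104 and 103 CPM in KO-labelled + AC libraries. Without apoptotic cells the genotypes overlapped, and with them the KO-labelled libraries were -0.54 (edgeR adjusted p = 0.00427), which gave -0.63 ± 0.15 (edgeR adjusted p = 0.00609). Its neighbour in function Ccl7 had -0.60 ± 0.16 (edgeR adjusted p = 0.0131), a call lost without WT library 3 (highest adjusted p of any alternative 0.101). Cxcl12, the stromal chemokine, had -1.22 ± 0.17 (edgeR adjusted p = 3.12e-05), and Ccl8, named after its value was seen, had -1.53. The count of negative genes was 2 without WT library 3.

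Of 27 immediate early genes, 4 had a positive and 1 a negative interaction, beside 7.55% and 5.13% of all genes, and the list's median of 0.056 was close to the -0.034 of all genes. Egr2, a zinc finger factor of alternative activation, was at 131 ± 6.67 CPM in WT, 97.6 ± 2.71 CPM in KO-labelled, 105 ± 5.78 CPM in WT + AC and 121 ± 3.10 CPM in KO-labelled + AC libraries (mean ± SD) and had 0.63 ± 0.11 (edgeR adjusted p = 0.000827). Zfp36, which destabilises cytokine messenger RNA, had 0.62 ± 0.13 (edgeR adjusted p = 0.00283), Fosl2 0.62 ± 0.14 and Klf6 0.48 ± 0.12. The negative gene was Fosl1 (-1.44), named after its value was seen. The KO-labelled libraries lay below WT in all 4 positive genes without apoptotic cells and above WT with them.

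Antigen presentation genes of MHC class II had 3 positive and no negative interactions among 10 tested, with a median of 0.35. The class II chain genes form a block on chromosome 17 and are switched on together by the co-activator CIITA through a shared promoter module, which includes a Y box with the letters ATTGG (or CCAAT on the other strand). The promoters of 2 called members, from RefSeq (GRCm38.p6), are shown because these genes share a direction; each runs over the 250 bases before the start, 5′ to 3′ on the gene's own strand, with every ATTGG on either strand in capitals.
H2-Aa promoter, chr17:34287824-34288073, minus strand: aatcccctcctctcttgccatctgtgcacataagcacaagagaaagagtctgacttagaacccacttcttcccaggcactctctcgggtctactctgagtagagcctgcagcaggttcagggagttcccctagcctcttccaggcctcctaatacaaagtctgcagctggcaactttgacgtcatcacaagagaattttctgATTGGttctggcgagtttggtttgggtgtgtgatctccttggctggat
H2-Eb1 promoter, chr17:34305617-34305866, plus strand: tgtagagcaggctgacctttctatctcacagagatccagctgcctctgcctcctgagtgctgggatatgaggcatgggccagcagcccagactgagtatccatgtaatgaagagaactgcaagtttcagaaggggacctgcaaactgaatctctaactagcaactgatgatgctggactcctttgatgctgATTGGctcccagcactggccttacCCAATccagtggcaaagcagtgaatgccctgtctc
The match nearest the start lay 44 bases before it in H2-Aa and 31 bases in H2-Eb1, which has 2 matches. Among all 32841 promoters of this length, 33.9% hold at least 1 ATTGG on either strand. The motif does not set these 2 called members apart: the promoters of the uncalled members H2-DMb1, H2-DMb2, H2-Ob and H2-Eb2, and 1 of the 2 promoters of H2-DMa, hold it as well. The promoters of Cd74, the other called member, and of the uncalled H2-Ab1 were not examined.

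Cd74, the invariant chain that guides class II molecules, was at 333, 325 and 333 CPM in WT, 388, 261 and 272 CPM in KO-labelled, 325, 303 and 319 CPM in WT + AC and 552, 514 and 534 CPM in KO-labelled + AC libraries. KO-labelled library 1 was above and libraries 2 and 3 below WT without apoptotic cells, while with them all KO-labelled libraries were above WT. The difference with apoptotic cells was 0.76 (edgeR adjusted p = 0.000229) and the interaction 0.86 ± 0.15 (edgeR adjusted p = 0.00048). H2-Aa, an alpha chain, was at 196, 219 and 230.3 CPM in WT, 264, 212 and 169 CPM in KO-labelled, 201, 184 and 198 CPM in WT + AC and 335, 313 and 315 CPM in KO-labelled + AC libraries. Its interaction was 0.72 ± 0.15 (edgeR adjusted p = 0.00297), and the difference in co-culture 0.72. H2-Eb1, a beta chain, was at 149.6, 153 and 149 CPM in WT, 218, 194 and 129 CPM in KO-labelled, 93.3, 98.4 and 98.9 CPM in WT + AC and 172, 163 and 159 CPM in KO-labelled + AC libraries. The interaction was 0.51 ± 0.17 (edgeR adjusted p = 0.045), and the call was kept in 10 of 22 alternatives, with an edgeR or DESeq2 adjusted p of at most 0.177. It was lost without any 1 library other than KO-labelled 1 and KO-labelled 3. The gene of CIITA itself was not called (0.34, edgeR adjusted p = 0.381), nor was the beta chain gene H2-Ab1 (0.43, edgeR adjusted p = 0.101); both were chosen for their role. Without KO-labelled libraries 1 and 2, 6 class II genes were called. Summed over the list, class II levels were 777.9 to 816 CPM in WT + AC and 1299 to 1388 CPM in KO-labelled + AC libraries, and 1054 to 1076 and 925 to 1446 CPM without apoptotic cells. Dendritic cells also express class II genes. The summed level of 12 dendritic cell markers was 636 to 678 CPM in KO-labelled + AC and 772 to 806 CPM in WT + AC libraries, but most of it was Itgax, which macrophages express too. Without Itgax the other 11 summed to 54.1 to 58.7 CPM in KO-labelled + AC and 50.1 to 53.1 CPM in WT + AC libraries, the opposite order. The part of dendritic cells in the class II result was not tested.

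Co-stimulatory and checkpoint ligands, which tell T cells how to respond to a presented antigen, had 4 positive and no negative interactions among 11 tested. Cd86 was at 6.47, 8.57 and 8.43 CPM in WT, 5.57, 4.95 and 4.94 CPM in KO-labelled, 9.19, 9.10 and 8.67 CPM in WT + AC and 11.7, 10.8 and 11.6 CPM in KO-labelled + AC libraries. The order of the genotypes reversed between conditions with no overlap in either, and the interaction was 0.94 ± 0.18 (edgeR adjusted p = 0.00152). Icosl had 1.09 ± 0.25 (edgeR adjusted p = 0.00533), Cd40 0.63 ± 0.17 (edgeR adjusted p = 0.0129) and Cd274, which encodes PD-L1, 0.46 ± 0.12 (edgeR adjusted p = 0.0111). The call of Cd40 was lost without WT library 2 (edgeR adjusted p = 0.0735) and that of Cd274 without KO-labelled library 2 (edgeR adjusted p = 0.0501).

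Alternative activation genes had 4 positive and no negative interactions among 15 tested. Arg1, the cytosolic arginase, was at 139, 137 and 121 CPM in WT, 75.3, 73.3 and 56.8 CPM in KO-labelled, 40.0, 41.1 and 38.8 CPM in WT + AC and 33.9, 33.1 and 33.5 CPM in KO-labelled + AC libraries. Arg1 was lower in the KO-labelled libraries in both conditions, with differences of -0.95 without and -0.25 (not called, edgeR adjusted p = 0.35) with apoptotic cells, so the positive interaction of 0.70 ± 0.14 (edgeR adjusted p = 0.00168) was a narrowing of a difference of 1 sign. Mrc1, the mannose receptor, was at 251 ± 23.9 CPM in WT, 165 ± 25.8 CPM in KO-labelled, 299.6 ± 12.6 CPM in WT + AC and 296 ± 8.93 CPM in KO-labelled + AC libraries (mean ± SD), and its interaction of 0.59 ± 0.14 (edgeR adjusted p = 0.00562) likewise came from the resting libraries. Retnla had 1.37 ± 0.32 (edgeR adjusted p = 0.00548). Cd163, the haptoglobin-haemoglobin receptor, had 47 counts in WT and 15 in KO-labelled libraries in all, and 20 and 25 with apoptotic cells. Its interaction of 1.91 ± 0.58 (edgeR adjusted p = 0.0309) lost the call without WT library 2 or 3, KO-labelled library 1 or 2, WT + AC library 1, 2 or 3 or KO-labelled + AC library 1 (highest adjusted p of any alternative 0.258). Among arginine, polyamine and itaconate genes, 4 of 13 were positive and 1 negative. Arg2, the mitochondrial arginase, was at 1.02, 0.979 and 1.24 CPM in WT, 0.475, 0.268 and 0.305 CPM in KO-labelled, 7.11, 6.76 and 6.43 CPM in WT + AC and 8.97, 9.27 and 8.06 CPM in KO-labelled + AC libraries and had 1.99 ± 0.36 (edgeR adjusted p = 0.000842). The arginine transporter gene Slc7a2 had 0.77 ± 0.15 (edgeR adjusted p = 0.00166) and the arginine synthesis gene Ass1 0.55 ± 0.16 (edgeR adjusted p = 0.0202), a call lost without WT library 1 or 3, WT + AC library 1 or KO-labelled + AC library 1 (highest adjusted p of any alternative 0.0931). The negative gene was Srm (-0.43), named after its value was seen.

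**Figure D3:**
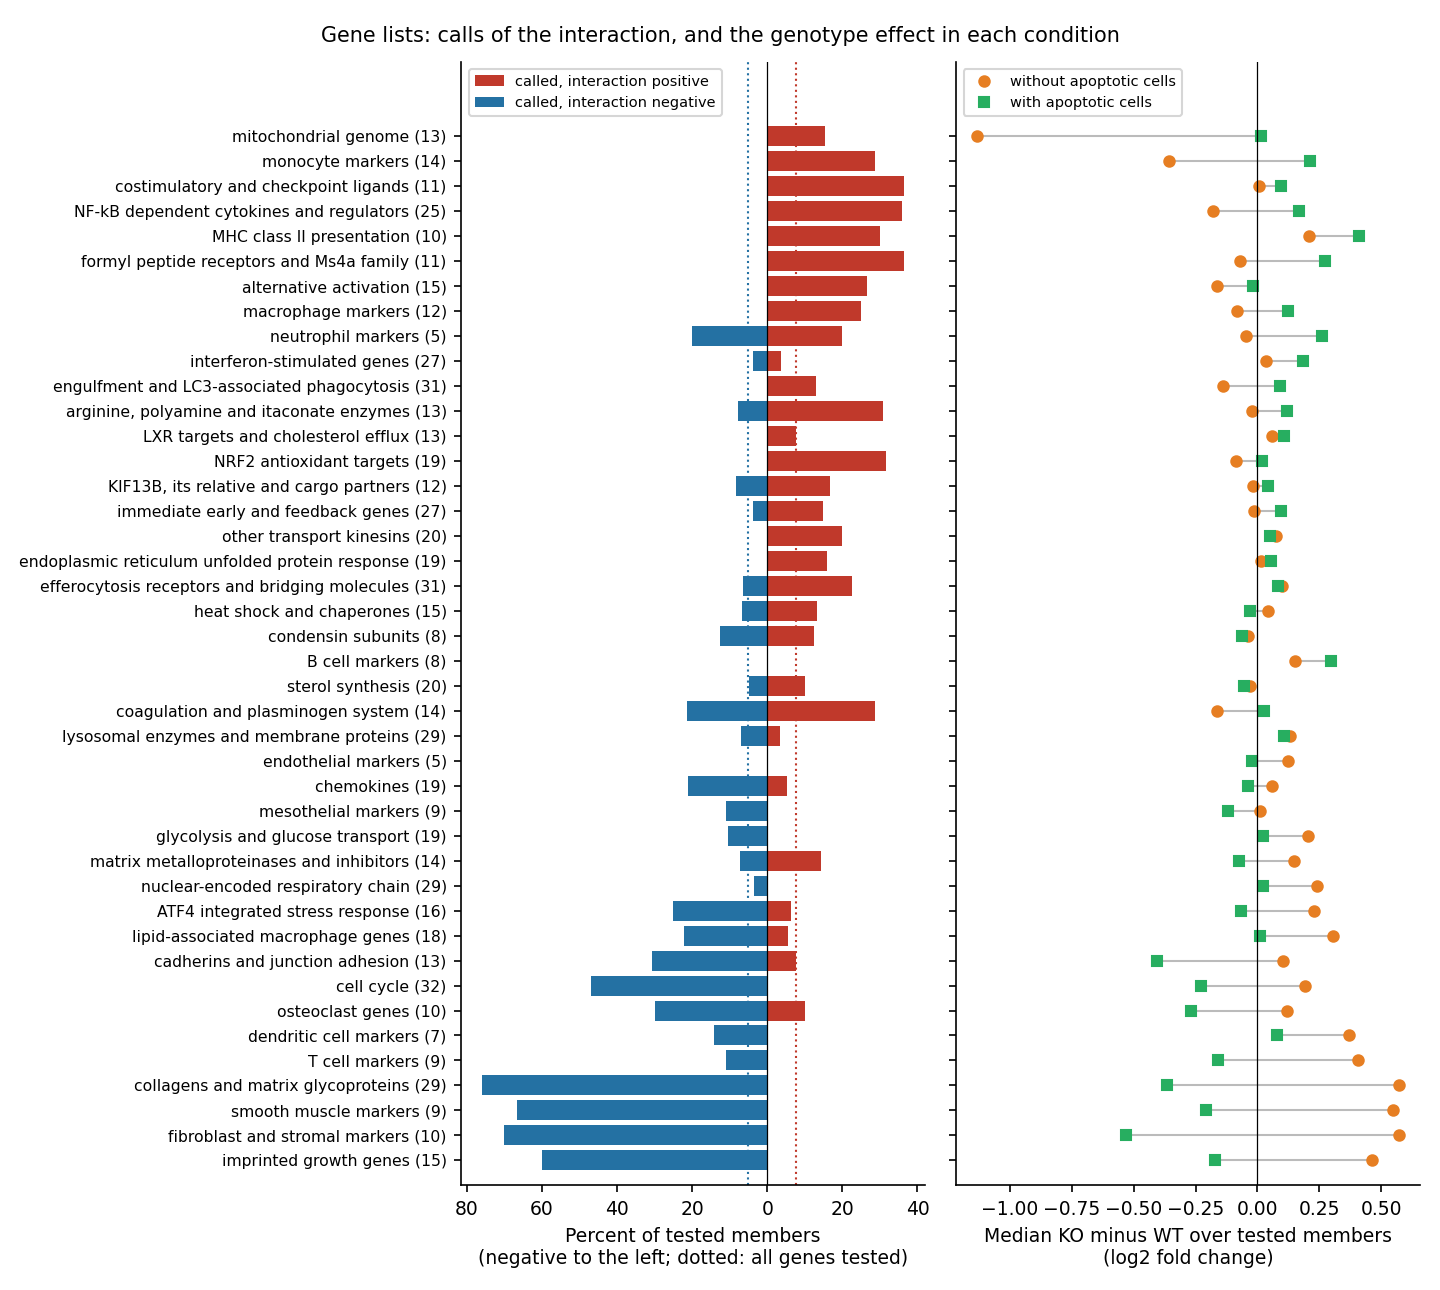
Left, percent of tested members of each gene list (number in brackets) called with a positive (right) or negative (left) interaction, beside the share over all genes tested (dotted lines, 7.55% and 5.13%); right, median log2 difference KO-labelled minus WT over the tested members without (circles) and with (squares) apoptotic cells. Matrix, fibroblast, smooth muscle and imprinted genes have the largest negative shares and their medians change sign between the conditions. The lists were chosen with earlier results of these data known.

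Of the lists with a called member, that of the extracellular matrix had the highest share of negative interactions. Of 29 tested collagen and matrix glycoprotein genes, 22 had a negative and none a positive interaction (5.13% of all genes were negative), and the median was -0.90. The median genotype difference was 0.57 without and -0.37 with apoptotic cells. Col3a1, a fibrillar collagen, was at 59.1, 52.8 and 43.7 CPM in WT, 92.8, 91.2 and 128 CPM in KO-labelled, 24.8, 25.2 and 28.3 CPM in WT + AC and 17.7, 16.5 and 18.3 CPM in KO-labelled + AC libraries. The KO-labelled libraries were all above WT without and all below WT with apoptotic cells, and the interaction was -1.58 ± 0.17 (edgeR adjusted p = 7.24e-07). Sparc, a collagen-binding glycoprotein, was at 398, 342 and 333 CPM in WT, 558, 517 and 532 CPM in KO-labelled, 92.1, 98.9 and 97.9 CPM in WT + AC and 67.0, 59.9 and 62.3 CPM in KO-labelled + AC libraries. It reversed in the same way, with -1.19 ± 0.12 (edgeR adjusted p = 4.01e-07). Col1a2 had -1.06 ± 0.14 (edgeR adjusted p = 2.49e-05) and Fbln2, a fibulin of elastic fibres, -0.90 ± 0.14 (edgeR adjusted p = 0.000167). Between 18 and 23 members were negative with any 1 library left out, and 22 without KO-labelled libraries 1 and 2.

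Fibroblast and stromal markers, several of which are the same collagen genes, had 7 negative and no positive interactions among 10 tested, with a median of -1.05. Col1a1 was at 132, 98.0 and 96.0 CPM in WT, 132, 132 and 201 CPM in KO-labelled, 133, 138 and 153 CPM in WT + AC and 97.3, 92.3 and 96.2 CPM in KO-labelled + AC libraries. Without apoptotic cells the genotypes overlapped, and with them the KO-labelled libraries were below WT; the interaction was -1.08 ± 0.20 (edgeR adjusted p = 0.00217). The summed level of the 13 markers was 616 to 763 CPM in WT, 859 to 1102 CPM in KO-labelled, 379.9 to 419 CPM in WT + AC and 258 to 279.7 CPM in KO-labelled + AC libraries. None of the 13 was at 0 in WT, WT + AC or KO-labelled + AC libraries, and Lepr was at 0 in the KO-labelled libraries. The summed level of the matrix list was 2481 to 2976 CPM in WT, 2824 to 3484 CPM in KO-labelled, 3222.5 to 3295 CPM in WT + AC and 2753 to 3007 CPM in KO-labelled + AC libraries. From WT to WT + AC the fibroblast sum was thus lower and the matrix sum higher. The lists share members, Col1a1, Col1a2 and Col3a1 among them, and the part of fibroblasts in the result was not tested.

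Smooth muscle genes had 6 negative and no positive interactions among 9 tested, a count that held at 6 in each of the 22 alternatives. Acta2, smooth muscle actin, was at 71.0, 63.9 and 59.8 CPM in WT, 236, 164 and 222 CPM in KO-labelled, 15.3, 14.8 and 15.9 CPM in WT + AC and 17.4, 15.2 and 15.4 CPM in KO-labelled + AC libraries. Without apoptotic cells all KO-labelled libraries exceeded WT, and with them the genotypes overlapped. The interaction was -1.61 ± 0.16 (edgeR adjusted p = 3.36e-07). Myl9, a myosin light chain, had -1.65 ± 0.26 (edgeR adjusted p = 0.000178) and the tropomyosin gene Tpm2 -1.15 ± 0.15 (edgeR adjusted p = 1.46e-05). Actg2, enteric actin, had -2.52 ± 0.41 (edgeR adjusted p = 0.000271) on 18 WT and 89 KO-labelled counts without apoptotic cells. The summed level of the 11 markers was 374.7 to 398 CPM in WT, 558 to 740.5 CPM in KO-labelled, 177 to 189 CPM in WT + AC and 154 to 159.9 CPM in KO-labelled + AC libraries. None was at 0 in a whole group, and the part of contractile cells in the result was not tested.

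**Figure D4:**
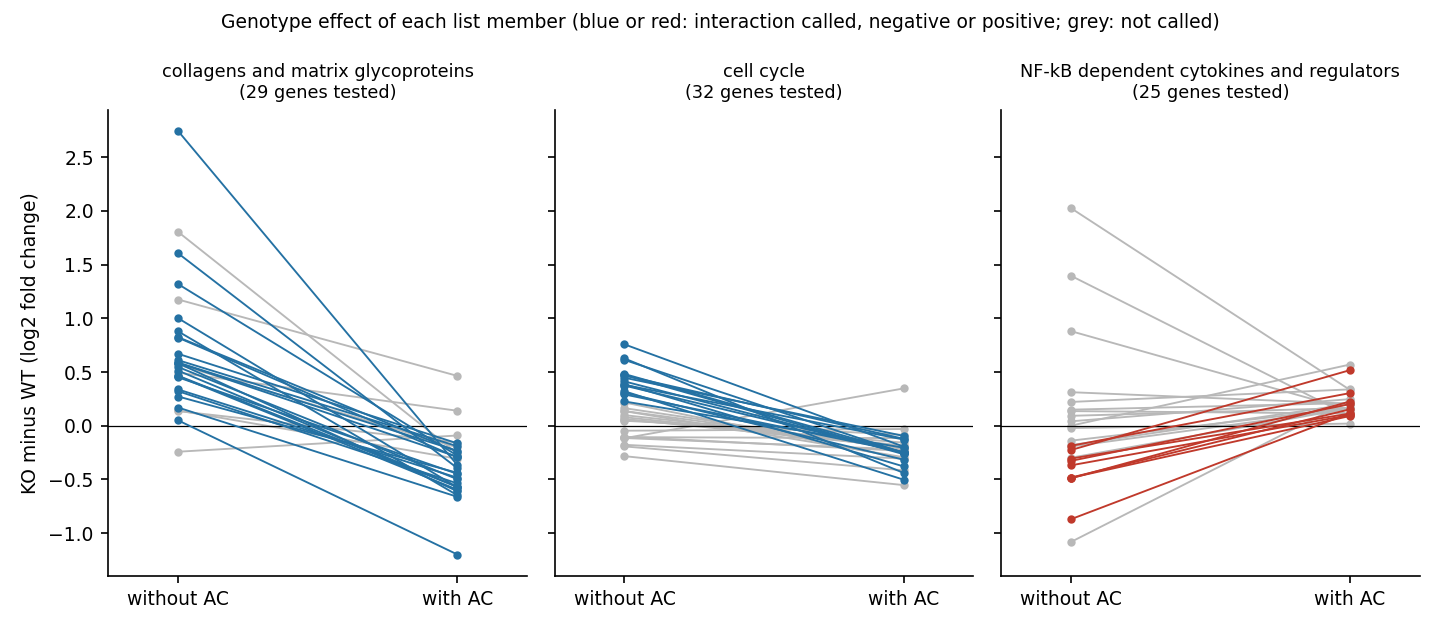
Log2 difference KO-labelled minus WT without and with apoptotic cells (AC) for each tested member of 3 lists, 1 line per gene, coloured where the interaction was called. The 22 called matrix genes and 15 called cell cycle genes slope down and the 9 called NF-kB genes slope up.

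The negative genes with the largest values under the naming rule are described next. Sfrp5, a secreted inhibitor of Wnt signals, was at 4.79, 4.16 and 5.21 CPM in WT, 17.8, 18.3 and 16.2 CPM in KO-labelled, 2.08, 2.69 and 1.84 CPM in WT + AC and 1.84, 1.09 and 1.30 CPM in KO-labelled + AC libraries. The KO-labelled libraries were all above WT without apoptotic cells (1.88) and all at or below WT with them. The interaction was -2.52 ± 0.26 (edgeR adjusted p = 4.01e-07). Htr2b, a serotonin receptor, was at 6.95, 6.18 and 8.74 CPM in WT, 18.9, 14.6 and 19.03 CPM in KO-labelled, 8.79, 7.56 and 7.98 CPM in WT + AC and 3.62, 4.79 and 4.84 CPM in KO-labelled + AC libraries, and its order reversed with no overlap in either condition (-2.14 ± 0.21, edgeR adjusted p = 2.76e-07). Cdh3, placental cadherin, reversed as well, from 13.8 ± 3.28 CPM in WT and 29.3 ± 3.40 CPM in KO-labelled to 3.96 ± 0.361 CPM in WT + AC and 1.97 ± 0.257 CPM in KO-labelled + AC libraries (-2.09 ± 0.24, edgeR adjusted p = 1.98e-06). Foxs1, a forkhead factor of the vessel wall, had -1.85 ± 0.30 (edgeR adjusted p = 0.000282). Srpx had -1.77 ± 0.30 (edgeR adjusted p = 0.00048) and Vsig8, an immunoglobulin-domain membrane protein, -1.76 ± 0.24 (edgeR adjusted p = 0.000324). A few negative genes were low at rest and rose with apoptotic cells in both genotypes: Nrn1 (-1.95 ± 0.40, edgeR adjusted p = 0.00208), Ptx3, a soluble pattern receptor (-1.75 ± 0.31, edgeR adjusted p = 0.000615), and Flt1, a VEGF receptor (-1.74 ± 0.37, edgeR adjusted p = 0.00318). In these 3 the KO-labelled libraries lay above WT without and below WT with apoptotic cells.

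Imprinted growth genes, which are read from 1 parental copy and act in fetal growth, had 9 negative and no positive interactions among 15 tested, with a median of -1.10. Cdkn1c, an inhibitor of cyclin-dependent kinases, was at 135, 117 and 109 CPM in WT, 241, 275 and 246 CPM in KO-labelled, 18.8, 17.9 and 19.4 CPM in WT + AC and 19.4, 17.96 and 17.9 CPM in KO-labelled + AC libraries. The whole interaction of -1.10 ± 0.13 (edgeR adjusted p = 5.88e-06) came from the resting libraries, since the co-culture difference was -0.02. Dlk1, a Notch-related membrane protein, had -1.85 ± 0.38 (edgeR adjusted p = 0.00241). Rian, a noncoding RNA of the same imprinted cluster, differed chiefly in co-culture (-0.84, edgeR adjusted p = 0.00363) and had -1.23 ± 0.20 (edgeR adjusted p = 0.000245). Grb10, an adaptor that restrains insulin signals, had -0.87 ± 0.17 (edgeR adjusted p = 0.00149). Without WT + AC library 3 the count was 5, and without KO-labelled libraries 1 and 2 it was 7.

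Cadherin and junction genes had 4 negative and 1 positive interactions among 13 tested. Besides Cdh3, they were Cdh2, neural cadherin (-0.80 ± 0.16, edgeR adjusted p = 0.00148), Cdh11 (-0.79 ± 0.16, edgeR adjusted p = 0.00262) and Cxadr, the coxsackievirus and adenovirus receptor of tight junctions (-0.95 ± 0.25, edgeR adjusted p = 0.0122). Cdh2 was at 25.5, 22.5 and 25.7 CPM in WT, 24.7, 25.5 and 32.3 CPM in KO-labelled, 15.3, 16.4 and 16.2 CPM in WT + AC and 10.0, 10.5 and 10.2 CPM in KO-labelled + AC libraries. The genotypes overlapped without apoptotic cells and separated with them. The call of Cxadr was lost without KO-labelled + AC library 2 (edgeR adjusted p = 0.0527). The positive gene was Jam2 (0.92), named after its value was seen.

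Cell cycle genes had 15 negative and no positive interactions among 32 tested. The median was -0.43, and 30 of the 32 had a negative value. Ube2c, the ubiquitin-conjugating enzyme of the anaphase-promoting complex, was at 17.7, 19.6 and 16.4 CPM in WT, 32.6, 23.8 and 26.6 CPM in KO-labelled, 8.58, 9.80 and 10.6 CPM in WT + AC and 7.98, 6.46 and 6.91 CPM in KO-labelled + AC libraries. The KO-labelled libraries were above WT without and below WT with apoptotic cells (-1.07 ± 0.18, edgeR adjusted p = 0.000422). Cdc20, an activator of that complex, was at 12.9 ± 1.94 CPM in WT, 21.9 ± 2.04 CPM in KO-labelled, 26.1 ± 2.78 CPM in WT + AC and 22.8 ± 1.72 CPM in KO-labelled + AC libraries (mean ± SD) and had -0.95 ± 0.16 (edgeR adjusted p = 0.00046). Mcm5, a subunit of the replicative helicase, had -0.67 ± 0.13 (edgeR adjusted p = 0.00196) and Cenpa, the centromeric histone, -0.77 ± 0.16 (edgeR adjusted p = 0.00299). The median genotype difference of the list was 0.19 without and -0.23 with apoptotic cells. Between 12 and 18 members were negative with any 1 library left out, 17 without KO-labelled libraries 1 and 2, and 20 after correction for gene length and GC content. Replication-dependent histone genes were not analysed here, as the 2 tables name them differently.

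Condensin subunits, which fold chromosomes in mitosis, did not follow the cell cycle list. Ncapg2, a subunit of condensin II, was at 39.7, 51.4 and 50.6 CPM in WT, 13.6, 10.2 and 15.8 CPM in KO-labelled, 27.7, 28.3 and 29.9 CPM in WT + AC and 18.7, 19.1 and 24.0 CPM in KO-labelled + AC libraries. Its KO-labelled libraries were below WT in both conditions, with differences of -1.84 without and -0.48 with apoptotic cells, and the interaction was 1.36 ± 0.18 (edgeR adjusted p = 2.28e-05). Ncapd2, of condensin I, had -0.45 ± 0.15 (edgeR adjusted p = 0.047) and lost the call without any 1 library other than WT 1 and KO-labelled 1 and KO-labelled 2 (highest adjusted p of any alternative 0.148), and the other 6 subunits were not called.

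Osteoclast genes had 3 negative and 1 positive interactions among 10 tested. Ctsk, the collagen-degrading cathepsin K, was at 369, 348 and 338 CPM in WT, 748, 556 and 641 CPM in KO-labelled, 238, 209.8 and 234 CPM in WT + AC and 162, 167 and 171 CPM in KO-labelled + AC libraries. It reversed with no overlap (-1.33 ± 0.13, edgeR adjusted p = 2.78e-07). Acp5, tartrate-resistant acid phosphatase, was at 159.8 ± 1.51 CPM in WT, 324 ± 47.6 CPM in KO-labelled, 168 ± 4.93 CPM in WT + AC and 175 ± 2.06 CPM in KO-labelled + AC libraries (mean ± SD), and its interaction of -0.95 ± 0.13 (edgeR adjusted p = 2.28e-05) came from the resting libraries. Itgb3, given above, was the third. Without WT library 1, 5 were negative. The positive gene, Nfatc1, the master factor of osteoclasts, had 0.46 ± 0.14 (edgeR adjusted p = 0.0297) and lost the call without WT library 1, KO-labelled library 1 or 2, WT + AC library 2 or 3 or KO-labelled + AC library 1 or 2 (highest adjusted p of any alternative 0.256). Of lipid-associated macrophage genes, 4 of 18 were negative and 1 positive. Itgax, the integrin CD11c, had -0.64 ± 0.11 (edgeR adjusted p = 0.000717), the cathepsin gene Ctsl -0.87 ± 0.13 (edgeR adjusted p = 9.09e-05), and Cd5l, a secreted scavenger protein, 1.02 ± 0.14 (edgeR adjusted p = 2.49e-05). Cd5l was at 279.9, 294 and 283 CPM in WT, 169, 199 and 139 CPM in KO-labelled, 112, 114 and 124 CPM in WT + AC and 139.7, 139.7 and 139 CPM in KO-labelled + AC libraries. The other negative members, Gpnmb (-0.45 ± 0.12) and Ctsd (-0.41 ± 0.13), lost their calls without WT library 2 or WT + AC library 1 and without any 1 library other than WT 1 and KO-labelled 3 respectively (highest adjusted p of any alternative 0.054 and 0.245).

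NRF2 antioxidant targets had 6 positive and no negative interactions among 19 tested, and the list's median was 0.090. Gclm and Gclc, the subunits of the enzyme that starts glutathione synthesis, had 0.60 ± 0.12 (edgeR adjusted p = 0.0024) and 0.57 ± 0.14 (edgeR adjusted p = 0.00896). Gclm was at 102, 92.2 and 110.1 CPM in WT, 69.1, 58.8 and 67.5 CPM in KO-labelled, 92.6, 87.6 and 90.9 CPM in WT + AC and 87.4, 85.6 and 90.8 CPM in KO-labelled + AC libraries. The genotypes separated only without apoptotic cells. The export pump gene Abcc1 had 0.58 ± 0.13 (edgeR adjusted p = 0.00473). The count was 3 without WT library 3, KO-labelled library 1 or 2 or WT + AC library 2, and 2 without KO-labelled libraries 1 and 2. Targets of ATF4 had 4 negative and 1 positive interactions among 16 tested. Phgdh, the first enzyme of serine synthesis, had -0.98 ± 0.16 (edgeR adjusted p = 0.000356). Chac1, a glutathione-degrading enzyme, had -1.15 ± 0.34 (edgeR adjusted p = 0.0252) at 0.873 ± 0.365 CPM in WT, 1.56 ± 0.260 CPM in KO-labelled, 5.89 ± 0.851 CPM in WT + AC and 4.71 ± 0.652 CPM in KO-labelled + AC libraries (mean ± SD), a call lost without WT library 3, KO-labelled library 2, WT + AC library 2 or KO-labelled + AC library 2 (highest adjusted p of any alternative 0.116). The count of negative genes was 2 without WT library 3, KO-labelled library 2, WT + AC library 2 or KO-labelled + AC library 2.

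All 13 tested genes of the mitochondrial genome had an interaction value above 0, with a median of 1.05, but only 2 were called. Their median genotype difference was -1.13 without and 0.014 with apoptotic cells. mt-Nd5, a subunit of respiratory complex I, was at 682, 1082 and 1680.4 CPM in WT, 417, 263 and 465 CPM in KO-labelled, 1414, 1267 and 1312 CPM in WT + AC and 1419.7, 1454 and 1323 CPM in KO-labelled + AC libraries. Within WT it ran over a wide range, and every KO-labelled library lay below WT without apoptotic cells. The interaction was 1.66 ± 0.44 (edgeR adjusted p = 0.0407), a call lost without any 1 library other than WT 1 and WT 3 and KO-labelled 3 (highest adjusted p of any alternative 0.27). Mitochondrial genes took 1.42, 2.06 and 2.53% of counts in WT, 1.12, 0.579 and 1.23% in KO-labelled and 1.504 to 1.64% in all libraries with apoptotic cells. The other called gene, mt-Nd4l (2.69), had 57, 12, 9 and 13 counts in WT, KO-labelled, WT + AC and KO-labelled + AC libraries, and its call was lost without WT library 2 or 3, KO-labelled library 2, WT + AC library 2 or 3 or KO-labelled + AC library 3. With 1 library left out, 0 members were called without WT library 2, WT + AC library 2 or 3 or KO-labelled + AC library 3, 6 without WT library 1, 3 without KO-labelled library 3, and 1 without any of the remaining 6. Nuclear genes of the respiratory chain had 1 negative interaction among 29 tested (Cox4i1, -0.60 ± 0.17, edgeR adjusted p = 0.0197), a call lost without WT library 1 or 3 or KO-labelled library 1.

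The interaction moved with gene length. By eighths of the tested genes with a known exonic length, its median was -0.22 in the shortest (median 549 bases) and 0.23 in the longest (median 11031 bases). The genotype difference without apoptotic cells went from 0.034 to -0.20 over the same span and that with apoptotic cells from -0.051 to 0.029. In the longest eighth 411 genes were positive and 66 negative, and in the shortest 13 and 77. With offsets corrected for length and GC content the medians ran from -0.12 to 0.058 and 1654 genes were called, of which 1235 were among the 2132. Without KO-labelled libraries 1 and 2 they ran from -0.0080 to 0.076. Of the 133 genes chosen by the naming rule, 14 lost the call under the correction, among them Slc7a11, the cystine transporter (0.73 ± 0.20, also lost without WT library 3, KO-labelled library 1 or 2 or WT + AC library 2), Klf6 and Cox4i1 (edgeR adjusted p = 0.128, 0.0681 and 0.128), while Kif13b, Mfge8, Fpr1, Cd74, Col3a1, Acta2 and Ube2c kept it.

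**Figure D5:**
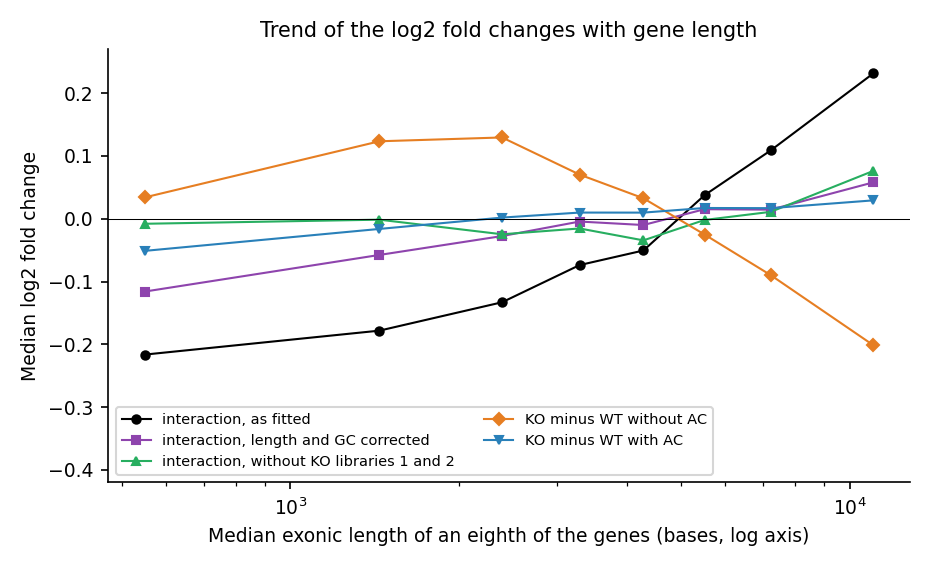
Median log2 difference by eighth of the genes ordered by exonic length (log axis, bases), for the interaction as fitted, after correction for length and GC content and without KO-labelled libraries 1 and 2, and for the genotype difference in each condition. The fitted interaction climbs from -0.22 to 0.23 and is flatter in both alternatives.

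Read the other way, the interaction asks whether the change with apoptotic cells differed between genotypes. Of the 2132 genes, 732 positive genes were higher with apoptotic cells in both genotypes and 522 negative genes lower in both. In these the log2 change was larger in KO-labelled cells. It was smaller in KO-labelled cells in 112 positive genes that were lower in both and 104 negative genes that were higher in both. A larger change need not mean a different level with apoptotic cells. The genotype difference was called without them only for 1132 positive and 669 negative genes in the joint fit. Changes of opposite sign were called in both genotypes for 2 smaller groups: 49 genes, F13a1 among them, were lower in WT and higher in KO-labelled cells, and 25 were the reverse. A further 226 positive genes were higher with apoptotic cells in KO-labelled cells only by call, and 150 were lower in WT only by call. Among the negative genes, 130 were lower in KO-labelled cells only by call, and 82 were higher in WT only by call. The shares of these classes over all genes tested are not given, and nothing is read from their sizes. These responses compare different tables, and table and condition cannot be told apart in them.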

How the data were processed

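RNA was measured by polyA-selected, paired-end sequencing. Per the submitters' processing notes, the authors used fastp, HISAT2 2.0.5, DESeq2 1.20.0 and mm10; which counter and strand setting produced the counts is not given in the sources used here. The deposited values are raw gene counts in 2 tables, 1 for each condition, joined here on 54582 of 54957 and 55367 symbols. Genes with low counts were removed by filterByExpr, and the rest fitted in edgeR 4.0.16 (R 4.3.3) with TMM scaling and the robust quasi-likelihood test, two-sided, with Benjamini-Hochberg adjustment over 16810 genes; the script was tested on simulated data. DESeq2 1.42.0, limma 3.58.1, other scalings, filters, blocks, a length and GC correction and left-out libraries were alternatives. Genes were named by a rule: Kif13b, Mertk and Mfge8, the 12 called genes at each end among genes averaging 2 CPM or more, and up to 4 called members of each list by p; some of these are not reported here. Members and lists were chosen with earlier results of these data known. Positions come from GRCm38.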

Additional observations from a re-analysis of the deposited data

Results flagged for a closer look

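The 2132 genes called for the interaction are those whose genotype difference was not the same without and with apoptotic cells by the test of that difference itself, and the named genes among them are gathered here with their interaction on the log2 scale. Among the positive genes, the interaction was above 2 for Plet1 (5.12), Fpr1 (2.86), Adgre4 (2.77), mt-Nd4l (2.69), Ms4a4a (2.49), Fpr2 (2.17) and F13a1 (2.02). It lay between 1 and 2 for Arg2 (1.99), Htra4 (1.95), Cd163 (1.91), Marco (1.77), AI504432 (1.69), mt-Nd5 (1.66), Clec4a1 (1.57), Spic (1.56) and Cxcl2 (1.46). They were followed by Hp (1.39), Retnla (1.37), Ncapg2 (1.36), Icosl (1.09), Serpinb2 (1.04) and Cd5l (1.02). Values under 1 were found for Cd86 (0.94), Cd74 (0.86), Itga4 (0.78), Slc7a2 (0.77), Itgav (0.76), Traf1 (0.74), Kif13b (0.74), Slc7a11 (0.73) and H2-Aa (0.72). They were followed by Kif5b (0.72), Nfkbiz (0.72) and Cybb (0.71). The smallest positive values were those of Arg1 (0.70), Cd14 (0.66), Egr2 (0.63), Cd40 (0.63), Fosl2 (0.62), Zfp36 (0.62), Gclm (0.60), Mrc1 (0.59) and Abcc1 (0.58). They were followed by Ms4a6c (0.58), Tnf (0.58), Gclc (0.57), Kif3a (0.57), Ass1 (0.55), Elmo1 (0.54), Kif1b (0.53), Tnfaip3 (0.53) and H2-Eb1 (0.51). Next came Utrn (0.50), Klf6 (0.48), Nfatc1 (0.46), Cd274 (0.46), Kif2a (0.45), Crk (0.45), Adgre1 (0.45) and Rab5a (0.43). Among the negative genes, it was below -2 for Sfrp5 (-2.52), Actg2 (-2.52), Htr2b (-2.14) and Cdh3 (-2.09). It was below -1.5 for Nrn1 (-1.95), Foxs1 (-1.85), Dlk1 (-1.85), Mfge8 (-1.78), Srpx (-1.77), Vsig8 (-1.76), Ptx3 (-1.75), Flt1 (-1.74) and Myl9 (-1.65). Then came Acta2 (-1.61) and Col3a1 (-1.58). Values between -1.5 and -1 were those of Ctsk (-1.33), Rian (-1.23), Cxcl12 (-1.22), Sparc (-1.19), Chac1 (-1.15), Tpm2 (-1.15), Cdkn1c (-1.10), Col1a1 (-1.08) and Ube2c (-1.07). Then came Col1a2 (-1.06). Values above -1 were found for Phgdh (-0.98), Acp5 (-0.95), Cdc20 (-0.95), Cxadr (-0.95), Fbln2 (-0.90), Grb10 (-0.87), Ctsl (-0.87), Cdh2 (-0.80) and Cdh11 (-0.79). Then came Cenpa (-0.77). The smallest negative values were those of Mcm5 (-0.67), Itgax (-0.64), Ccl2 (-0.63), Cox4i1 (-0.60), Ccl7 (-0.60), Dlg3 (-0.59), Itgb3 (-0.55), Gpnmb (-0.45) and Ncapd2 (-0.45). Then came Ctsd (-0.41). All were called by edgeR in the joint fit, and those that lost the call without 1 library are given as such with the results above, apart from Adgre1, which lost it without KO-labelled library 2.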

How the results depend on the processing

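None of the called genes among the 133 named by rule changed sign in the 22 alternatives, while Mertk, which was not called, ran from -0.16 to 0.12. The number of called genes (2132: 1269 positive and 863 negative) was 1129 to 4330 with 1 library left out, the lowest without WT library 3 and the highest without KO-labelled library 3; the positive count ran from 697 to 2272 and the negative from 432 to 2058. Without KO-labelled libraries 1 and 2 it was 1043 (527 positive and 516 negative), and without KO-labelled library 3 and WT library 1 it was 5242 (2193 and 3049). Against a minimum change of 1.5-fold (glmTreat) it was 59 (23 and 36). Fitting the tables apart and reading the difference as a z gave 2995 genes of 12125 (1503 and 1492), while no filter on low counts gave 2130 of 42317 (1077 and 1053), DESeq2 2334 (1373 and 961) and limma voom 2257 (1305 and 952). The genotype difference was called for 2040 genes without and 1838 with apoptotic cells in separate fits, against 3999 and 157 in the joint fit, where 1 spread is shared. The correlation of the 2 genotype differences was -0.164 to -0.106 with 1 library left out in separate fits. With length and GC corrected offsets it was -0.0439 (Spearman -0.112), where the joint fit and its 16810 genes replaced the separate fits as well. The cause of these shifts was not tested.

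Replicate numbers did not pair the libraries: same-numbered WT and KO-labelled libraries deviated together with correlations of -0.107 to 0.064 without and -0.069 to 0.026 with apoptotic cells. A replicate block nested in the table gave 2030 calls (1263 and 767) and a block shared by the 4 groups 2174 (1294 and 880). Depth limits the genes whose counts in a group were below 60. Among them were Plet1, Cd163, mt-Nd4l, Adgre4, Arg2, Htra4, AI504432, Spic, Cxcl2 and Icosl. Negative genes with such counts included Nrn1, Flt1, Ptx3, Dlk1, Foxs1, Srpx, Actg2 and Chac1.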

Other observations

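Coagulation and plasminogen genes went both ways, with 4 positive and 3 negative interactions among 14 tested. Serpinb2, an inhibitor of plasminogen activators, was at 17.9, 15.1 and 17.97 CPM in WT, 8.89, 4.75 and 6.95 CPM in KO-labelled, 151, 149 and 154 CPM in WT + AC and 129.6, 126 and 123 CPM in KO-labelled + AC libraries. Its interaction was 1.04 ± 0.17 (edgeR adjusted p = 0.00035). Interferon-stimulated genes had 1 positive and 1 negative interaction among 27 tested, sterol synthesis genes 2 and 1 among 20, LXR targets 1 and 0 among 13, lysosomal genes 1 and 2 among 29, metalloproteinases and their inhibitors 2 and 1 among 14, the unfolded protein response 3 and 0 among 19, heat shock genes 2 and 1 among 15, and glycolysis genes 0 and 2 among 19.

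Neutrophil markers had 1 positive and 1 negative interaction among 5 tested, T cell markers 0 and 1 among 9, mesothelial markers 0 and 1 among 9, and dendritic cell markers 0 and 1 among 7. The summed T cell markers lay at 54.4 to 55.1 CPM in WT, 60.9 to 73.5 CPM in KO-labelled, 81.5 to 90.8 CPM in WT + AC and 75.7 to 82.3 CPM in KO-labelled + AC libraries.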
